A study of Mus musculus with 6 samples.

Results

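Cholesterol handling in skeletal muscle was examined through 8 genes in the gastrocnemius, the large muscle of the calf. They are Apoe and Apoc1, which encode apolipoproteins, the cholesterol synthesis genes Acat2, Hmgcs1, Idi1 and Sqle, Srebf2, which encodes the transcription factor that controls the synthesis genes, and Abca1, which encodes a cholesterol exporter. The genes were selected on their FPKM in these same mice, so their differences between genotypes are given as a description with no test. All 8 were found among the 23997 gene symbols measured, and all 8 were among the 13359 genes with a mean of at least 0.5 FPKM. FPKM counts the sequenced fragments of a gene scaled to the length of its transcripts and to the size of the library. The scaling is meant to make levels of different genes comparable, and its limits in these libraries are given below.

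RNAseq was performed on the gastrocnemius of untreated mice at 21 days of age, with 1 library per mouse and 3 mice per genotype. HrasG12V mice 2276, 2278 and 2279 were Caggs-Cre+ and heterozygous for activated Hras, and model Costello syndrome. Their WT littermates 2277, 2280 and 2281 (Caggs-Cre-/HrasflG12V/+) carried the same inserted allele without Cre, so that it was not switched on. The CAG promoter drives Cre broadly through the body, and the mutant allele was expressed from the intrinsic Hras promoter. Any difference can therefore come from cells other than muscle fibres or from the whole animal, and Cre itself differed between the groups. All mice were on a mixed background of SWR/J, 129S1/SvImJ and C57BL/6J. Sex, litter and batch are not named in the labels, and p-values measure the spread between these mice. Hras itself measured 36.8, 36.0 and 51.8 FPKM in the WT mice and 58.8, 28.9 and 16.0 FPKM in HrasG12V mice 2276, 2278 and 2279, which does not tell the alleles apart.

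Cells make cholesterol from acetyl-CoA through mevalonate, isoprenoid units and squalene. When sterols in the endoplasmic reticulum are low, SREBP2, the product of Srebf2, is cut from its membrane anchor and switches on the genes of synthesis and uptake. When sterols are high, oxysterols activate the LXR nuclear receptors, which switch on Abca1 and other export genes. Apolipoprotein E carries lipid between cells and is bound by lipoprotein receptors on the cell surface. It is made mostly by the liver, and also by macrophages, adipocytes and glia.

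SREBP2 binds sterol regulatory elements in promoters, and letters of that form were found in 3 of the 6 genes for which a promoter could be read. The letters to search for were chosen after these promoters were seen, so nothing is read from that count beside the share over all windows. The window ran from 250 bases before the RefSeq transcription start to 50 bases after it. The letters TCACNCCA, searched on both strands, occurred in Apoe, Hmgcs1 and Srebf2, and in 4.36% of 32851 promoter windows of the same length. The stretches around them are shown because they place the same 8 letters in an apolipoprotein gene, a synthesis enzyme gene and the gene of the factor itself. Each is given 5′ to 3′ on the strand of its gene, from RefSeq sequence of GRCm38.p6, with the matching letters in capitals.
Apoe, chr7:19699364-19699431, minus strand: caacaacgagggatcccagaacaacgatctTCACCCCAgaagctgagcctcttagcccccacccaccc
Hmgcs1, chr13:119690184-119690251, plus strand: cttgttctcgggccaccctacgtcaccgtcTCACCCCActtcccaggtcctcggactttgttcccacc
Srebf2, chr15:82147077-82147144, plus strand: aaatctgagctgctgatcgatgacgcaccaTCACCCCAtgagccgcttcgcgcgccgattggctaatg
The first matching base lay at -213 in Apoe, -137 in Hmgcs1 and -162 in Srebf2, counted from the start. CCAAT, the box bound by NF-Y, which acts beside SREBP at many sterol-regulated promoters, was found on either strand in Hmgcs1, Srebf2 and Idi1, and in 37.4% of all windows. The E-box CACGTG, which SREBP proteins can also bind, was found in Abca1 and in 7.15% of all windows. A match is a description of the sequence and not a measured binding site, and the reference is the C57BL/6J genome, so alleles of the other 2 strains were not seen.

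Libraries stood apart in ways that touch the results. In HrasG12V mouse 2276 the median difference from the WT mean was 0.67 (log2) for genes with under 1500 bases of exon and fell steadily to -0.50 for genes of at least 10000 bases, while the medians of these length classes lay between -0.12 and 0.01 in mice 2278 and 2279. The 10 most abundant genes took 29.9% of the FPKM of mouse 2276 and 18.6% to 24.2% in the other libraries. B and T cell genes summed to 110 FPKM in mouse 2278 and 106 FPKM in mouse 2279, against 1.64 to 2.71 FPKM in the other 4 mice, and 9 of 10 were higher in HrasG12V mice at an unadjusted p below 0.05 by limma. The muscle fibre genes Acta1, Myh4 and Atp2a1 were listed at 0 in all 6 mice, although Mylpf, the fast myosin light chain, reached 10760 to 36114 FPKM, and 0 of 9 tested fibre genes passed that limit. Some of those 9 were also listed at 0, namely Ckm in all mice but 2278, Tnnt3 in mouse 2276 and Myh1 in WT mice 2277 and 2280. Over all 13359 genes the median log2 fold change was -0.03, 1358 genes (10.2%) had an unadjusted p below 0.05 by limma, and 8 genes (0.0599%) had an adjusted p below 0.05.

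Of the 8 genes, Apoe, Apoc1 and Acat2 were higher in every HrasG12V mouse than in every WT mouse, none was lower throughout, and 5 overlapped between genotypes. Among all genes, 8.11% were higher without overlap and 10.4% lower without overlap. Since the genes were selected on this contrast, nothing is read from that count.

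Apoe was by far the most abundant of the 8 genes and lay at the 95.1 percentile of mean FPKM among genes tested. It measured 66.3, 71.0 and 58.4 FPKM in the WT mice and 120.5, 155 and 177 FPKM in HrasG12V mice 2276, 2278 and 2279. The WT mice lay close together, and the lowest HrasG12V mouse was well above the highest of them. The means were 65.2 ± 6.38 and 151 ± 28.5 FPKM (SD, n = 3), a 2.31-fold difference, with a log2 fold change of 1.19 ± 0.23 (SE). Without mouse 2276 the log2 fold change was 1.35. Apoe spans chr7:19696109-19699188 on the minus strand (GRCm38).

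Apoc1, whose product is a small apolipoprotein of the same lipoprotein particles, was much less abundant. It measured 1.05, 2.13 and 0.599 FPKM in the WT mice and 3.48, 5.23 and 2.98 FPKM in HrasG12V mice 2276, 2278 and 2279. The genotypes did not overlap, but the WT mice spread widely around a low mean, 1.26 ± 0.789 FPKM against 3.90 ± 1.18 FPKM in HrasG12V mice (SD, n = 3). The means differed 3.10-fold and the log2 fold change was 1.68 ± 0.45 (SE). With 744 bases of exon Apoc1 is the shortest of the 8 genes. Once the trend over exon length was removed from each library, its HrasG12V and WT values overlapped, while those of Apoe and Acat2 still did not. Apoc1 starts 6.53 kb downstream of Apoe, at chr7:19689481-19692660 on the same strand.

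Acat2 encodes the cytosolic thiolase that joins acetyl-CoA units, the entry to the mevalonate pathway. It is not the sterol esterifying enzyme of the same older name, which Soat2 encodes. Acat2 measured 0.832, 1.22 and 0.921 FPKM in the WT mice and 2.76, 3.07 and 1.75 FPKM in HrasG12V mice 2276, 2278 and 2279. Mouse 2279 was the lowest HrasG12V mouse and still exceeded the 3 WT mice. The means were 0.992 ± 0.205 and 2.53 ± 0.689 FPKM (SD, n = 3), and the log2 fold change was 1.25 ± 0.28 (SE). Acat2 lies at chr17:12942890-12960747 on the minus strand, and 39.1% of the 50-base stretches in its transcripts also occur in transcripts of Acat3 or Tcp1, so reads could be split between them. Acat3, a close copy, measured 14.1 to 14.7 FPKM in the WT mice and 28.7, 12.5 and 12.9 FPKM in mice 2276, 2278 and 2279, a different order from that of Acat2.

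**Figure D1:**
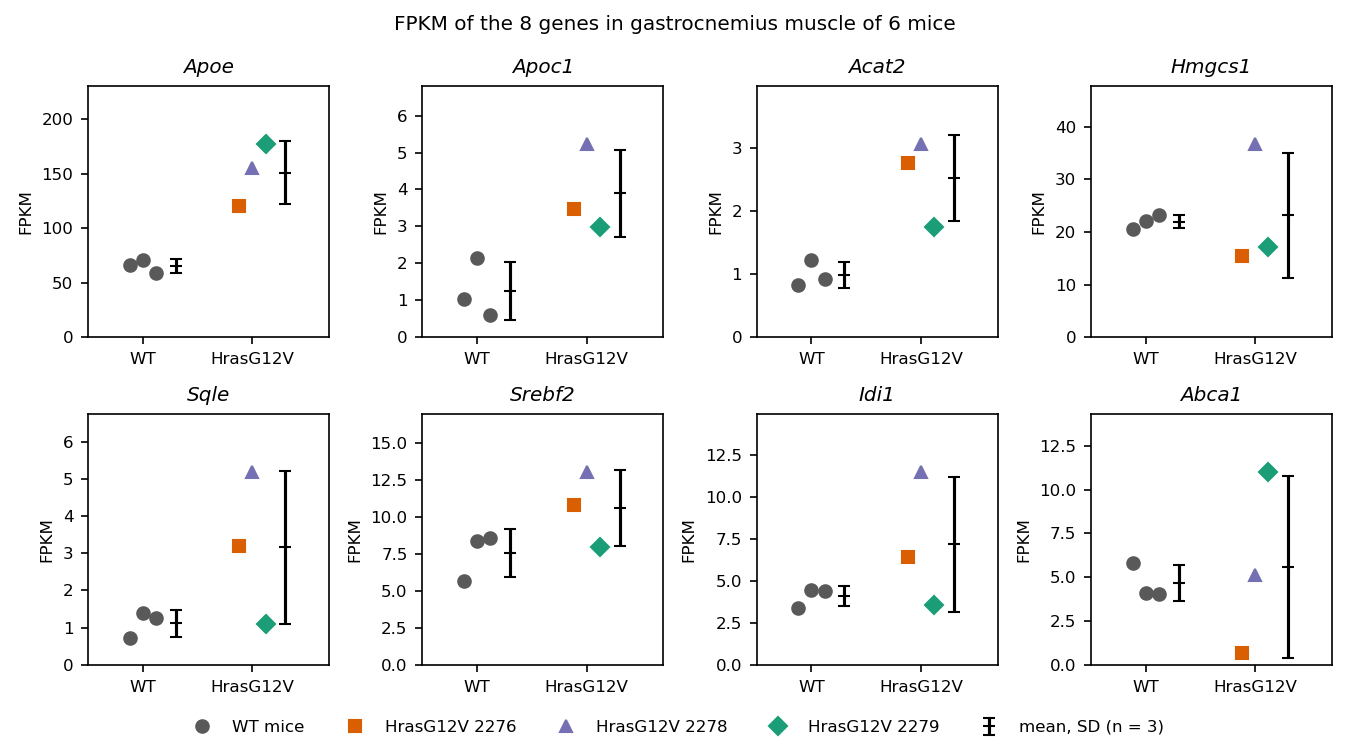
FPKM of the 8 genes in each mouse, with 1 panel per gene, a linear axis from 0, WT mice in grey, a symbol for each HrasG12V mouse, and bars for the mean and SD of 3 mice. Apoe, Apoc1 and Acat2 show no overlap, while in Sqle, Idi1 and Srebf2 mouse 2279 (diamond) lies among the WT mice, and Abca1 runs from 0.680 to 11.0 FPKM within the HrasG12V group.

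Hmgcs1, the cytosolic HMG-CoA synthase of the next step, did not follow Acat2. It measured 20.6, 22.1 and 23.1 FPKM in the WT mice and 15.4, 36.7 and 17.2 FPKM in HrasG12V mice 2276, 2278 and 2279. Mouse 2278 was above all WT mice and the other two HrasG12V mice were below them. The means, 22.0 ± 1.26 and 23.1 ± 11.8 FPKM (SD, n = 3), were nearly equal, the SD of the HrasG12V group was several times larger, and the log2 fold change was -0.04 ± 0.34 (SE). Without mouse 2276, 2278 or 2279 the log2 fold change was 0.20, -0.43 and 0.12. Among the synthesis genes of the selection Hmgcs1 was the most abundant, at the 79.0 percentile. It lies at chr13:119690379-119708260 on the plus strand, and an antisense gene, Gm48342, overlaps its exons.

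Idi1 encodes the isomerase that makes the isoprenoid units usable, and Sqle encodes squalene epoxidase, the first step of the pathway that uses oxygen. Idi1 measured 3.40, 4.46 and 4.41 FPKM in the WT mice and 6.43, 11.5 and 3.59 FPKM in HrasG12V mice 2276, 2278 and 2279. Sqle measured 0.711, 1.40 and 1.26 FPKM in the WT mice and 3.19, 5.19 and 1.09 FPKM in the same HrasG12V mice. Both genes were highest in mouse 2278 and next in mouse 2276, and in mouse 2279 both were within the WT range. The log2 fold change was 0.65 ± 0.40 (SE) for Idi1 and 1.22 ± 0.56 (SE) for Sqle, and without mouse 2279 these values were 1.06 and 1.82. Without mouse 2278 they were 0.24 and 0.75. Idi1 lies at chr13:8885501-8892451 and Sqle at chr15:59315077-59331192, both on the plus strand. Of the 50-base stretches of Idi1, 25.3% occur in other genes or pseudogenes, while for Sqle the share was 0.0358%.

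Srebf2 showed the same order of mice with a smaller range. It measured 5.66, 8.34 and 8.59 FPKM in the WT mice and 10.8, 13.0 and 7.96 FPKM in HrasG12V mice 2276, 2278 and 2279. Mice 2276 and 2278 were above all WT mice and mouse 2279 was not. The means were 7.53 ± 1.63 and 10.6 ± 2.54 FPKM (SD, n = 3), and the log2 fold change was 0.48 ± 0.25 (SE). It was 0.29 without WT mouse 2277 and 0.32 without mouse 2278. SREBP2 is controlled mainly by cleavage of its protein, which RNA does not show. Srebf2 spans chr15:82147181-82205379 on the plus strand and holds the gene of the miRNA Mir33 in an intron, which was listed at 0 in all 6 mice.

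Abca1 had the widest spread of the 8 genes within the HrasG12V group on the log2 scale. It measured 5.83, 4.10 and 4.04 FPKM in the WT mice and 0.680, 5.11 and 11.0 FPKM in HrasG12V mice 2276, 2278 and 2279. Mouse 2276 was at 0.146 times the WT mean, mouse 2278 at 1.10 times and mouse 2279 at 2.37 times. The means were 4.66 ± 1.02 and 5.60 ± 5.19 FPKM (SD, n = 3), while the log2 fold change was -0.40 ± 0.91 (SE), so the mean and the log2 scale differ in sign. Leaving out mouse 2276 turned the log2 fold change to 0.70, and leaving out mouse 2279 took it to -1.22. Abca1 has 10363 bases of exon, the most of the 8 genes, at chr4:53030787-53159895 on the minus strand. In mouse 2276 0.330% of the genes with at least 10000 bases of exon had a lower difference from WT than Abca1, and after removal of the length trend its difference in that mouse was still -2.19 (log2).

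Set side by side within mice, 6 of the 8 genes exceeded all 3 WT mice in mouse 2276, 7 in mouse 2278 and 4 in mouse 2279, where the shares over all genes were 43.1%, 31.7% and 33.7%. After removal of the length trend the differences in mouse 2279 were 1.55 (log2) for Apoe, 1.54 for Apoc1 and 0.87 for Acat2, but 0.06 for Sqle, 0.12 for Srebf2, -0.10 for Idi1 and -0.29 for Hmgcs1. In mouse 2278 they were 1.37 for Apoe, 2.33 for Apoc1, 1.65 for Acat2, 2.24 for Sqle, 1.56 for Idi1, 0.88 for Srebf2 and 0.82 for Hmgcs1. In mouse 2276 they were 0.49 for Apoe, 0.82 for Apoc1, 1.09 for Acat2, 1.58 for Sqle, 0.77 for Srebf2, 0.52 for Idi1 and -0.51 for Hmgcs1. Apoe was thus highest in mouse 2279, in which Sqle, Idi1 and Srebf2 were nearest to WT. Lss, a late synthesis gene outside the 8, was above all WT mice in mouse 2279 and not in mouse 2276.

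The remaining genes of these pathways were taken from 6 hand-written lists, and 57 genes outside the 8 were tested. With an unadjusted p below 0.05 by limma, 5 of the 57 were higher in HrasG12V mice (Msmo1, Srebf1, Clu, Arl4c and Npc2) and 2 were lower (Me1 and Nceh1), 12.3% in all. Over all genes 5.18% were higher and 4.99% lower at this limit. None of the 57 passed the adjusted limit, the smallest adjusted p being 0.288 by limma. Without mouse 2276, Arl4c, Srebf1 and Clu were higher and Apoo was lower with adjusted p of 0.00999, 0.0129, 0.0246 and 0.0255 by limma, and 1291 of all genes passed that limit. The count at an unadjusted p was 4 by a test per gene without moderation (7.02% of the 57, beside 9.86% of all genes). Without mouse 2276 it was 16 (28.1%, beside 29.8% of all genes), and without mouse 2279 it was 15 (26.3%, beside 11.5%). Without WT mouse 2277, 2280 or 2281 it was 3, 4 and 4, where 4.75%, 5.31% and 4.54% of all genes had such a p. Srebf1, Me1 and Nceh1 kept an unadjusted p below 0.05 whichever mouse was left out. Clu lost it without WT mouse 2277 or 2280 or without mouse 2278 or 2279, and Msmo1 without WT mouse 2277 or 2281 or without mouse 2276 or 2278. Arl4c and Npc2 lost it without any 1 of the WT mice or without mouse 2278, and Arl4c also without mouse 2279. In 6 of the 57 genes the HrasG12V mice were higher without overlap and in 4 they were lower, beside 8.11% and 10.4% of all genes.

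Of the 15 other cholesterol synthesis genes, 11 had a log2 fold change above 0 and 1 passed the unadjusted limit. Their median log2 fold change was 0.25, and the range ran from -0.37 for Sc5d, a desaturase of a late step, to 0.84 ± 0.32 (SE; adjusted p = 0.477, limma) for Msmo1. The value of Sc5d was -0.10 without mouse 2276 and -0.60 without mouse 2278. Without mouse 2276 the median of the 15 genes was -0.063. Msmo1, a sterol C4 methyl oxidase and the gene past the unadjusted limit, measured 2.94, 4.91 and 3.71 FPKM in the WT mice and 6.63, 10.2 and 4.78 FPKM in HrasG12V mice 2276, 2278 and 2279.

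In the wider pathway, too, mice 2276 and 2278 stood above WT in more genes than mouse 2279 did, with mouse 2276 first, where in Sqle and Idi1 mouse 2278 was first. Of the 15 genes, 11 exceeded all WT mice in mouse 2276, 9 in mouse 2278 and 3 in mouse 2279, which is 73.3%, 60.0% and 20.0% of them. After removal of the length trend 12, 10 and 3 did, beside 41.1%, 38.9% and 38.9% of all genes. Cyp51, the lanosterol demethylase, measured 1.69 to 2.47 FPKM in the WT mice and 3.26, 4.71 and 1.77 FPKM in HrasG12V mice 2276, 2278 and 2279. Nsdhl, an enzyme that removes sterol methyl groups, measured 3.92 to 4.90 FPKM in the WT mice and 8.87, 8.35 and 4.50 FPKM in the HrasG12V mice. In both genes, which were chosen after their values were seen, mouse 2279 lay within the WT range. Other genes of the list had other orders. Mvd measured 3.16 to 6.18 FPKM in the WT mice and 11.6, 3.77 and 8.90 FPKM in mice 2276, 2278 and 2279. Lbr measured 11.1 to 12.1 FPKM in the WT mice and 8.70, 12.9 and 14.8 FPKM in these HrasG12V mice. Without mouse 2279, 5 of the 15 genes (Cyp51, Fdps, Msmo1, Mvk and Nsdhl) were higher with an unadjusted p below 0.05, and their smallest adjusted p was 0.338 by limma, where 11.5% of all genes had such a p in either direction. Without mouse 2276 or 2278 the counts were 1 (Lss, higher) and 2 (Mvd higher, Sc5d lower), beside 29.8% and 9.69% of all genes. Without WT mouse 2277, 2280 or 2281 they were 0, 1 and 0.

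**Figure D2:**
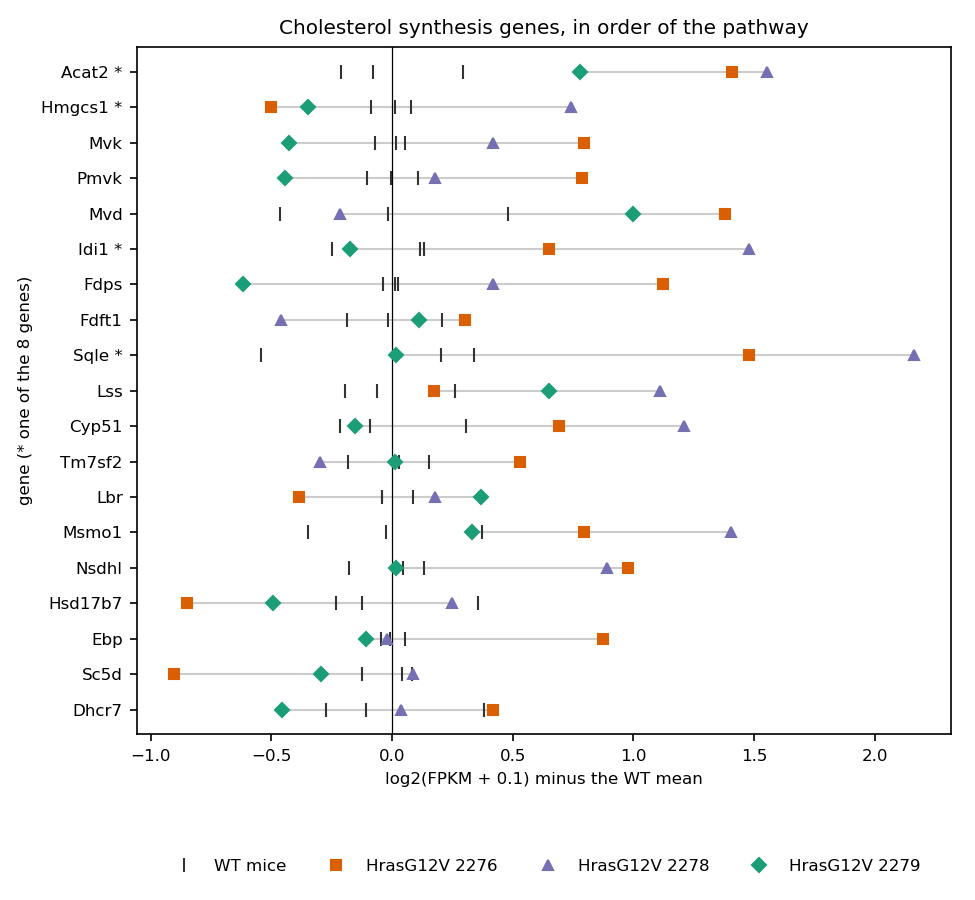
Cholesterol synthesis genes, 19 in all, in the order of the pathway, each value as log2(FPKM + 0.1) minus the WT mean, with ticks for the WT mice, a symbol for each HrasG12V mouse and a grey line for their range, and an asterisk for Acat2, Hmgcs1, Idi1 and Sqle. Mice 2276 (square) and 2278 (triangle) lie right of the WT ticks in most genes, 11 and 9 of the 15 without an asterisk, while mouse 2279 (diamond) does so in 3.

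Of the genes that control SREBP2 or the uptake of sterols, 8 were tested outside Srebf2, of which 1 (Insig1) had a log2 fold change above 0 and 7 had one below 0. The median log2 fold change was -0.12, and by limma 0 of the 8 had an unadjusted or adjusted p below 0.05, as in the test without moderation. Without WT mouse 2281, mouse 2278 or mouse 2279 the median was -0.21, -0.20 and -0.21, and 1 gene had an unadjusted p below 0.05 without mouse 2276 (Insig2, lower) and without mouse 2279 (Insig1, higher). Insig1, which holds SREBP back in the endoplasmic reticulum and is itself an SREBP target, measured 7.77, 8.39 and 7.02 FPKM in the WT mice and 9.99, 15.2 and 8.55 FPKM in HrasG12V mice 2276, 2278 and 2279, with no overlap (log2 fold change 0.50 ± 0.24, SE; adjusted p = 0.539, limma). Without mouse 2278 it was 0.26, and without mouse 2279 it was 0.67 with an unadjusted p below 0.05 (adjusted p = 0.396, limma). Its order of HrasG12V mice was that of Sqle and Idi1. The related Insig2 measured 33.5 to 39.9 FPKM in the WT mice and 33.1, 24.7 and 26.3 FPKM in the HrasG12V mice, lower without overlap. Npc1l1, a sterol transporter, had the lowest log2 fold change of the list, -0.49.

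Among the SREBP1 and fatty acid genes the pattern over mice was a different one. Srebf1 measured 8.23, 8.92 and 9.84 FPKM in the WT mice and 14.9, 17.5 and 20.0 FPKM in HrasG12V mice 2276, 2278 and 2279, without overlap and with its highest value in mouse 2279, as in Apoe. Its log2 fold change was 0.94 ± 0.17 (SE; adjusted p = 0.288, limma). Fasn, the fatty acid synthase, measured 2.85 to 4.22 FPKM in the WT mice, 6.32 and 6.04 FPKM in mice 2276 and 2279, and 53.2 FPKM in mouse 2278, a log2 fold change of 1.92 ± 0.82 (SE; adjusted p = 0.497, limma) that was 0.90 without mouse 2278. Adipocyte markers were also highest in mouse 2278, at a median of 2.21 (log2) above the WT mean against 0.31 in mouse 2276 and 1.87 in mouse 2279, and their part in the fatty acid genes was not tested. Over the 13 genes of the list the median log2 fold change was 0.53, and without mouse 2276 or 2278 it was 1.05 and 0.19. In mouse 2278, 10 of the 13 were above all WT mice, against 5 in mouse 2276 and 6 in mouse 2279. Me1, the malic enzyme, was lower, with 69.8 to 88.3 FPKM in the WT mice and 49.1 to 51.4 FPKM in the HrasG12V mice (log2 fold change -0.60 ± 0.19, SE; adjusted p = 0.432, limma).

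Of the 8 genes of the LXR list tested beside Abca1, 2 (Abcg1 and Arl4c) had its order of HrasG12V mice, and the other 6 did not. The receptors Nr1h3 and Nr1h2 differed little, with a log2 fold change of 0.13 ± 0.22 (SE; adjusted p = 0.885, limma) for Nr1h3. Abcg1, which exports cholesterol to HDL, measured 1.22, 0.877 and 0.650 FPKM in the WT mice and 0.557, 2.00 and 3.41 FPKM in HrasG12V mice 2276, 2278 and 2279, again lowest in 2276 and highest in 2279 (log2 fold change 0.77 ± 0.62, SE; adjusted p = 0.718, limma). Without mouse 2276 it was 1.46 (adjusted p = 0.0622, limma), and without mouse 2279 it was 0.25. Mylip, a ubiquitin ligase gene that LXR controls, came from the list of SREBP2 control genes, was picked after its values were seen, and had the same order, 4.70, 8.35 and 16.5 FPKM against 7.14 to 11.7 FPKM in the WT mice. Arl4c measured 0.568 to 0.988 FPKM in the WT mice and 0.912, 3.72 and 4.51 FPKM in the HrasG12V mice (log2 fold change 1.63 ± 0.59, SE; adjusted p = 0.469, limma). Cyp27a1, a sterol hydroxylase gene, measured 22.9 to 24.7 FPKM in the WT mice and 24.4, 15.2 and 42.9 FPKM in the HrasG12V mice. Pltp, a phospholipid transfer protein gene, had the lowest log2 fold change of the list, -0.25, and the median over the 8 genes outside Abca1 was 0.08, which became -0.077 without mouse 2276 and 0.33 without mouse 2278. In mouse 2279 Abca1, Abcg1 and Mylip were at their highest while Sqle and Idi1 were within the WT range. In mouse 2276 both exporters and Mylip were below the WT range while Sqle and Idi1 were above it. The length trend was not removed from the values of Abcg1 and Mylip. This holds for picked genes only. Of the 8 LXR genes outside Abca1, 1 (Abcg1) was below all WT mice in mouse 2276 and 3 were above. Of the 15 other synthesis genes, 3 (Mvd, Lss and Lbr) were above all WT mice in mouse 2279 and 7 were below.

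**Figure D3:**
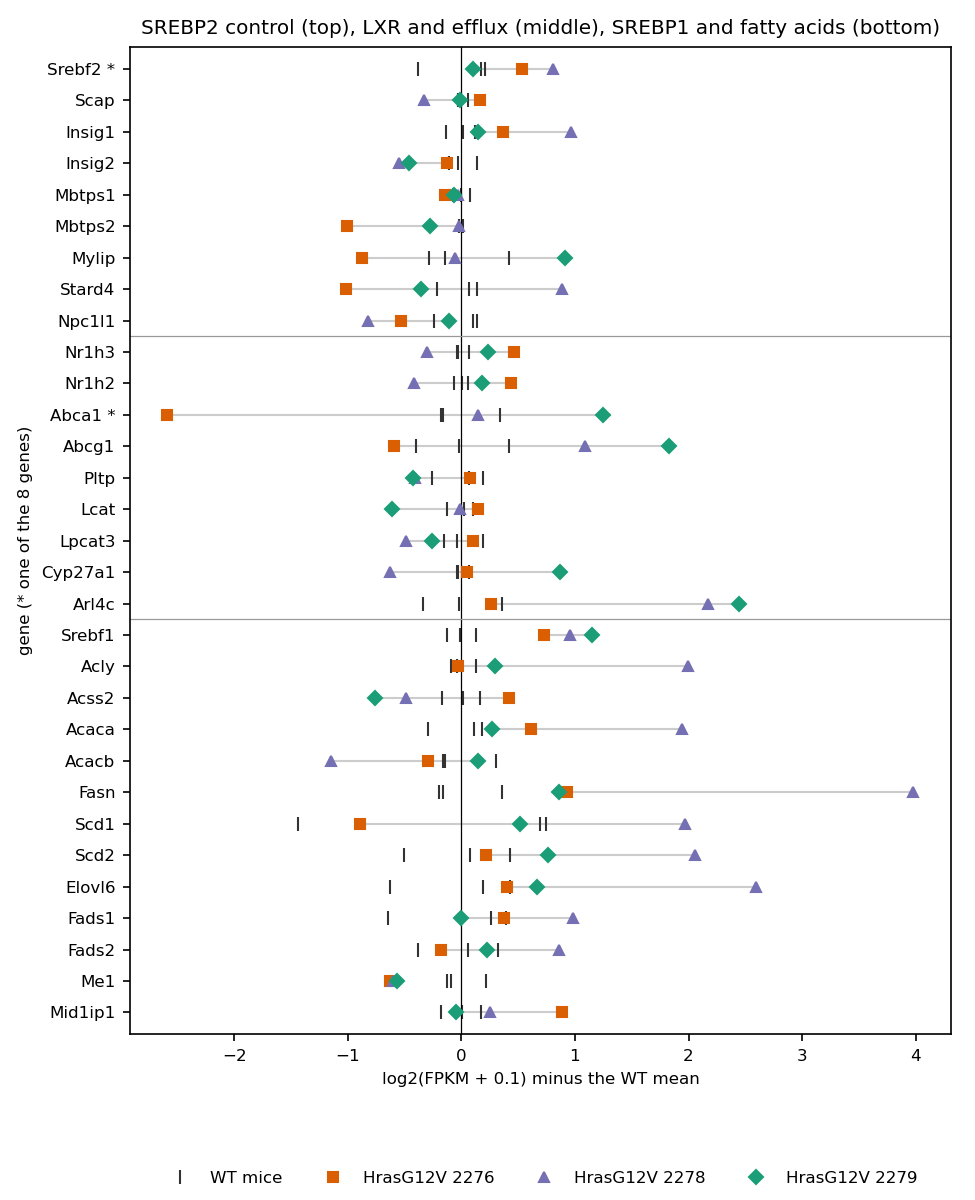
Genes of SREBP2 control and sterol uptake (top), LXR and efflux (middle) and SREBP1 and fatty acid synthesis (bottom), as log2(FPKM + 0.1) minus the WT mean, with ticks for the WT mice, a symbol for each HrasG12V mouse, a grey line for their range and an asterisk for Srebf2 and Abca1. Abca1, Abcg1 and Mylip are lowest in mouse 2276 (square) and highest in mouse 2279 (diamond), Insig1 is highest in mice 2278 and 2276, and Fasn stands out in mouse 2278 (triangle).

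Of 16 apolipoprotein genes listed, 6 were abundant enough to be tested, namely Apoe, Apoc1, Apod, Clu, Apoo and Apool. Apob, the backbone of LDL, did not exceed 0.00219 FPKM, Apoa5 was listed at 0 in all 6 mice, and Apoa1 did not exceed 0.0974 FPKM. Clu, or apolipoprotein J, passed the unadjusted limit at 18.7, 19.5 and 28.2 FPKM in the WT mice and 27.4, 53.9 and 66.5 FPKM in HrasG12V mice 2276, 2278 and 2279, with mouse 2276 below the highest WT mouse (log2 fold change 1.08 ± 0.37, SE; adjusted p = 0.449, limma). Apod, which is abundant in fibroblasts and nerve, measured 13.0 to 19.6 FPKM in the WT mice, 23.3 and 24.9 FPKM in mice 2276 and 2278, and 103 FPKM in mouse 2279, with no overlap (log2 fold change 1.20 ± 0.58, SE; adjusted p = 0.541, limma; 0.50 without mouse 2279). Apoo and Apool, whose products sit in mitochondria and do not form lipoproteins, had log2 fold changes of -0.33 and -0.26, and both were above all WT mice in mouse 2276 and below them in the other HrasG12V mice. Without mouse 2276 the values were -0.66 and -0.67. Without mouse 2278 or 2279 that of Apoo was -0.13 and -0.21.

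Genes of sterol esters, lysosomal release and lipoprotein receptors had a median log2 fold change of -0.29 over the 9 tested, and 1 was higher and 1 lower past the unadjusted limit. Nceh1, an esterase that frees cholesterol from its esters, measured 17.2, 13.9 and 10.7 FPKM in the WT mice and 8.11, 6.04 and 7.51 FPKM in the HrasG12V mice (log2 fold change -0.92 ± 0.22, SE; adjusted p = 0.371, limma). Npc2, which carries cholesterol out of lysosomes, measured 14.0 to 15.2 FPKM in the WT mice and 17.5 to 19.6 FPKM in the HrasG12V mice (log2 fold change 0.36 ± 0.14, SE; adjusted p = 0.483, limma). Without mouse 2276 the median of the list was -0.07, and without mouse 2279 it was -0.44. With array weights or the length trend removed it was -0.14. Without mouse 2279, 5 of the 9 were past the unadjusted limit (Npc2 higher, and Nceh1, Npc1, Scarb1 and Vldlr lower), beside 11.5% of all genes. Without mouse 2276 or 2278 the counts were 3 and 1, beside 29.8% and 9.69% of all genes, and 1 without any 1 of the WT mice.

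RNA of marker genes for cell types that make apolipoprotein E differed between mice as well. Whether more such cells or more RNA per cell raised a value cannot be told apart in whole muscle. Summed macrophage marker FPKM were 93.7 to 112 in the WT mice and 122, 274 and 156 in HrasG12V mice 2276, 2278 and 2279. Lyz2 alone measured 29.9 to 34.1 FPKM in the WT mice and 28.1, 122 and 60.6 FPKM in these HrasG12V mice. The median log2 fold change over 13 tested macrophage genes was 0.49, and 3 of them (C1qa, Ctss and Aif1) were higher at an unadjusted p below 0.05. Csf1r, a defining macrophage receptor, was at 5.49 to 8.93 FPKM in the WT mice and 6.05, 13.1 and 7.75 FPKM in the HrasG12V mice. Schwann cell markers, from the nerve within the muscle, summed to 152, 404 and 192 FPKM in WT mice 2277, 2280 and 2281 and to 249, 566 and 673 FPKM in the HrasG12V mice, with a median log2 fold change of 0.78 and 3 of 15 higher at the same limit. Adipocyte markers summed to 696 to 1513 FPKM in the WT mice and 1356, 1614 and 1545 FPKM in the HrasG12V mice, sums that Fabp4 and Car3 dominate. Their median log2 fold change was 1.37, 12 of 12 were above 0, 6 were higher without overlap and 5 had an unadjusted p below 0.05. Over all genes 5.18% were higher at this p and 8.11% higher without overlap. Fibroblast markers had a median log2 fold change of -0.38 over 8 genes, with 0 of 8 past the unadjusted limit. Hepatocyte markers, for the tissue that makes most plasma apolipoprotein, summed to at most 1.34 FPKM and Alb did not exceed 0.266 FPKM. The part of these cell types in the levels of the 8 genes was not tested.

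Around Apoe the annotation lists 15 genes within 100 kb, of which 7 could be tested, Apoc1 among them. Outside Apoc1, which was selected on this contrast, 3 of the 6 (Relb, Nectin2 and Clasrp) were higher in HrasG12V mice without overlap and 0 were lower, where 8.11% and 10.4% of all genes were. The median log2 fold change of the 6 was 0.37. Relb, an NF-κB subunit whose start lies 69.8 kb downstream, measured 2.87, 3.33 and 2.22 FPKM in the WT mice and 5.99, 5.72 and 6.49 FPKM in HrasG12V mice 2276, 2278 and 2279 (log2 fold change 1.10 ± 0.18, SE; adjusted p = 0.288, limma). Nectin2, an adhesion receptor upstream of Apoe, and Clasrp had log2 fold changes of 0.57 ± 0.20 and 0.55 ± 0.22 (SE; adjusted p = 0.46 and 0.483, limma). Tomm40 and Clptm1, the nearest tested genes after Apoc1, overlapped between genotypes with log2 fold changes of 0.19 and -0.05, as did Bcam with 0.06. Apoc2 and Apoc4, the other apolipoprotein genes of this cluster, were too low to be tested.

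**Figure D4:**
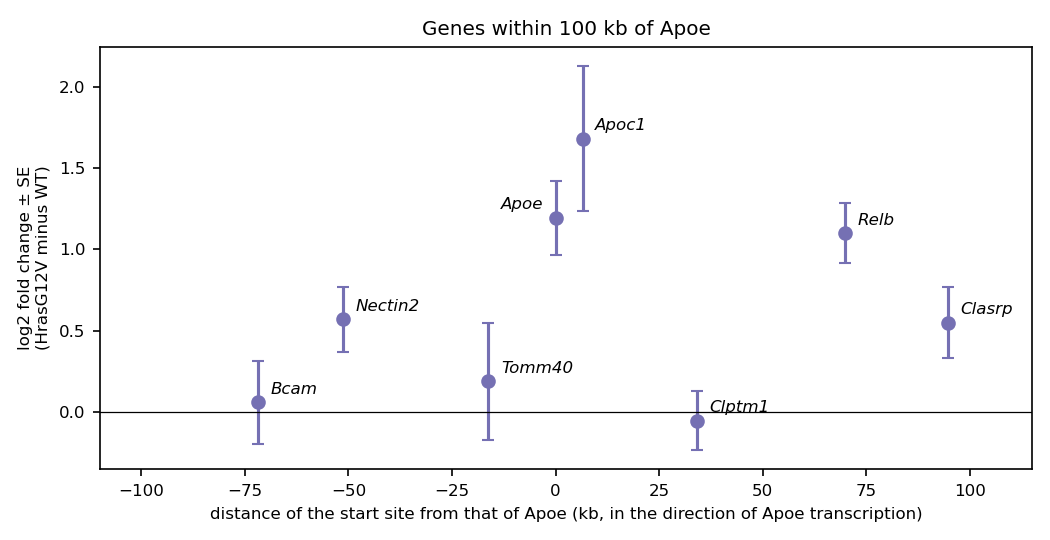
Log2 fold change (HrasG12V minus WT, bars show SE, n = 3 mice per genotype) of the tested genes within 100 kb of Apoe, by the distance of their start sites from that of Apoe in its direction of transcription. Apoe, Apoc1 and Relb stand above 1, while Tomm40 and Clptm1 lie at 0.19 and -0.05.

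The genes most like Apoe over the 6 mice were sought among 12178 genes with a mean of at least 1 FPKM, by the root mean square difference of log2(FPKM + 0.1) after each gene was centred on its mean. They were Rasa3 (0.0889), Rbm3 (0.159), H2-M3 (0.167), Plaur (0.170) and Cacnb3 (0.172). Rasa3, a Ras and Rap GTPase-activating protein, measured 4.76, 5.77 and 4.87 FPKM in the WT mice and 8.57, 12.5 and 14.0 FPKM in HrasG12V mice 2276, 2278 and 2279, and the HrasG12V mice had the same order as in Apoe. For Hmgcs1 they were Gm11747 (0.0848), Skap2 (0.0988), Nrg4 (0.102), Armcx1 (0.112) and Mir6935 (0.124), none of them on the cholesterol synthesis list. Skap2, an adaptor protein of blood cells, measured 3.57 to 4.21 FPKM in the WT mice and 2.77, 6.31 and 3.48 FPKM in the HrasG12V mice. These genes were chosen for their likeness over 6 values, and no test was made of it.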

How the data were processed

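Gene expression was measured by RNAseq in gastrocnemius muscle of 3 HrasG12V and 3 WT mice. According to the methods, RNA was extracted with an RNeasy kit, stranded libraries were prepared with a KAPA kit, and single-end reads were processed with TopHat, Cufflinks and Cuffnorm. The submitters' processing notes name these with bcl2fastq, and the builds GRCm38 and mm10. For tool versions and the strand setting of counting, none is given in the sources used here. The values are the FPKM that the authors deposited, 1 per gene symbol and library, scaled by Cuffnorm. Read counts were not used here: in a check for whole reads in the low values, the fullest interval of 2% held 1.99% to 12.4% of genes, so the reads behind each FPKM are known only through the nominal depth in the methods, and precision comes from the spread between mice.

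Genes with a mean of at least 0.5 FPKM were kept (13359), 0.1 was added, and the log2 values were fitted by genotype in R 4.3.3 with limma 3.58.1 (trend over abundance, Benjamini-Hochberg adjustment, limit 0.05, no covariate). Fold changes on the log2(FPKM + 0.1) scale understate changes of low genes. The fit was also run on simulated data with independent noise for each gene. These held no differences shared across a library, such as the length trend of mouse 2276, so nothing is read from them here. Groups and mouse numbers came from the labels.

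The 8 genes, the gene lists and the tests were chosen with earlier results of these data known. Named genes were the 8, then Insig1, Srebf1, Nr1h3 and Abcg1, the genes of each list past the unadjusted limit with its highest and lowest member, the 5 most like Apoe and the 5 most like Hmgcs1, and genes within 100 kb of Apoe. Others, such as Nsdhl, Cyp51, Mylip, Insig2, Acat3, and genes without overlap, were chosen after their values were seen. Some genes were taken out of the lists and are not reported here. Promoters came from RefSeq (GRCm38.p6), matched by symbol for 6 of the 8 genes, and the motifs were chosen after the promoters were seen. Positions, exon lengths (99.3% of genes tested) and shared 50-base stretches came from GENCODE vM21 on GRCm38. The length trend was removed per library, an alternative chosen after seeing the data. Figures were drawn with matplotlib 3.10.9 and tables made with numpy 2.4.6 and pandas 2.3.3 in Python 3.11.15.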

Additional observations from a re-analysis of the deposited data

How the results depend on the processing

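The log2 fold changes of Apoe, Apoc1, Acat2, Sqle, Srebf2 and Idi1 stayed above 0 under each alternative that can move them (pseudocounts, scalings, array weights, each mouse left out, length trend removed; filters and moderation cannot), while those of Hmgcs1 and Abca1 did not keep their sign. With a pseudocount of 1 that of Acat2 was 0.81. Abca1 was at 0.41 with array weights and between -1.22 and 0.70 when a mouse was left out. Genes with an unadjusted p below 0.05 by limma were counted anew under each alternative, and numbered 1358 in the main fit. They numbered 717 after rescaling to the same total, 3042 with array weights, and 606 to 3979 without a mouse (3979 without 2276, 606 without 2281). The count of genes past the adjusted limit was 8 in the main fit. It was 5 with a pseudocount of 1, 1 without moderation, 572 with array weights, and 7 to 1291 without a mouse (1291 without 2276). Of the 57 pathway genes outside the selection, 7 were past the unadjusted limit in the main fit. The number was 2 at the same total, 4 without moderation, and 3 to 16 without a mouse. It was 20 with array weights (35.1% of the 57, beside 22.8% of all genes) and 13 with the length trend removed (22.8%, beside 11.0% of all genes). The median of the LXR list was -0.084 with array weights. The median of the cholesterol synthesis list was 0.034 with array weights and -0.063 to 0.48 without a mouse. That of the SREBP1 list was 0.97 with array weights and 0.19 to 1.05 without a mouse. For the 16 other named genes of the pathways, 215 of 255 alternative values kept their side of the unadjusted limit, 15 newly passed it and 25 no longer did. The cause of these shifts was not tested. No paired analysis was possible because the mouse numbers do not pair the genotypes. The methods state a nominal depth, but the reads behind each FPKM were not recovered, so the precision of low genes such as Apoc1, Acat2 and Sqle rests on 3 mice per genotype.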
